A study of Danio rerio with 4 samples.

Results

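Endothelin signalling and the genes that act below it in the ventral pharyngeal arches were followed through 7 zebrafish (Danio rerio) genes: the ligand gene edn1, the receptor genes ednraa, ednrab and ednrba, and the transcription factor genes hand2, mef2ca and mef2cb. They were found by gene name among the 26267 genes of the deposited expression table, and all 7 were present. RNA came from embryos at 20 hours post fertilization (hpf), from cells sorted for red fluorescence of the sox10:DsRed reporter, a transgene driven by regulatory sequence of a neural crest gene. Each of the 2 groups held 2 samples, named in the labels as biological replicates and made from pooled embryos. The mutant samples carried mutant nr2f5; their titles also name nr2f2 as mutant, but their genotype field gives nr2f2 as unknown, and no allele names are given. The wild-type samples are also called controls. The pools held 88 and 35 mutant embryos and 110 and 120 wild-type embryos, and the labels do not say which pool is which replicate.

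In the pharyngeal arches, Edn1 peptide made by the surface ectoderm, the endoderm and the mesodermal core acts on neural crest cells through type A endothelin receptors, which couple to G proteins. In zebrafish, Ednraa and Ednrab share this role, and Mef2ca and Hand2 act below the receptors in the cells that form the lower jaw. The type B receptor Ednrba is known from pigment cells. The Nr2f receptors are best known on the other side of the same arches, where they shape the upper jaw. Endothelin signalling limits their expression on the ventral side. The study asks how Nr2f receptors control the fate of ectomesenchyme in the head, the part of the neural crest that makes the facial skeleton.

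The sorted cells carried the defining crest genes: all 7 neural crest markers examined, sox10 and crestin among them, had 10.04 TPM or more in every library (TPM is abundance scaled by transcript length and library total). Their summed level was 1782 and 1576 TPM in the mutant libraries and 1266 and 1047 TPM in the controls, each time with replicate 1 first, an order kept throughout. The mutated gene nr2f5 was at 46.5 and 47.1 TPM in the mutant libraries and 579 and 559 TPM in the controls. Cells of other kinds were also present. Skeletal muscle markers summed to 273 and 114 TPM in the mutant samples and 770.2 and 2344 TPM in the wild-type samples, and none of the 18 was listed at 0 throughout. Wild-type replicate 2 stood apart by its epidermis and periderm markers, at 5020.0 TPM against 533 to 808 TPM in the other libraries. The read depth behind TPM is unknown, so a value of 0 is described only as listed at 0. In bulk samples, fewer cells of a type and less RNA per cell cannot be told apart.

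The receptor genes went in different directions. The type A receptor gene ednraa fell in the mutant cells, and the other type A gene, ednrab, had higher values in both mutant samples but did not pass the test. Tests were made with limma on log2(TPM + 1) over the 14217 genes whose mean reached 1 TPM, and a gene was called at an adjusted p under 0.05. Of the 7 members, edn1 lay below this minimum and 6 were tested: 1 fell, 0 rose and 5 were not called. Over all tested genes, 4.08% were called (1.13% rose and 2.95% fell), and 53.2% had groups that did not overlap. The share called over all genes was lower when mutant replicate 1, mutant replicate 2 or control replicate 2 was left out. It was higher when control replicate 1 was left out. The median log2 fold change was -0.06 over the 6 members and -0.16 over all tested genes.

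**Figure D1:**
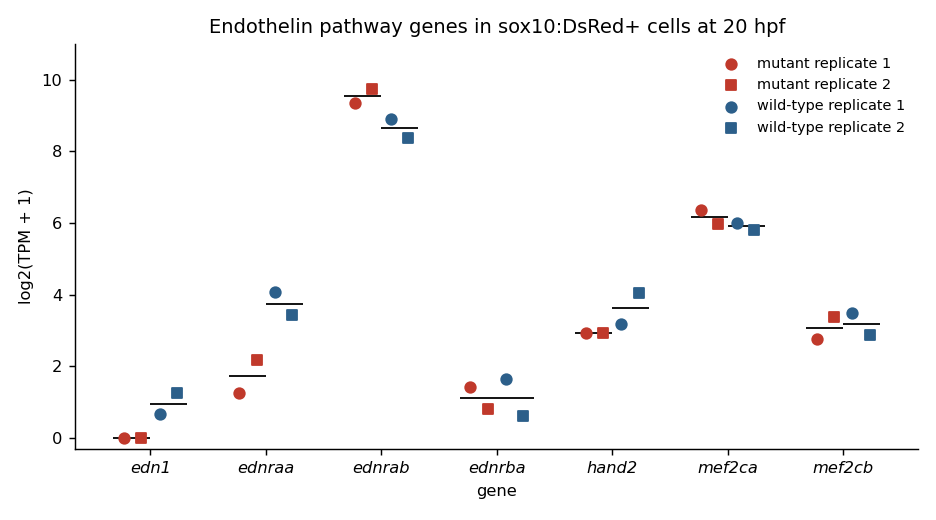
Expression of the 7 genes as log2(TPM + 1) in each sample (points: red, mutant; blue, wild-type; circles, replicate 1; squares, replicate 2; lines, group means). The groups do not overlap for edn1, ednraa, ednrab and hand2, and they overlap for ednrba, mef2ca and mef2cb.

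The ligand gene edn1 had the lowest values of the 7 genes in mutant cells and values among the lowest in wild-type cells. Its single transcript was listed at 0 in both mutant libraries and had 0.584 and 1.40 TPM in the controls. No fold is given against a group at 0, and with no filter on low values its adjusted p was 0.23. Pharyngeal endoderm markers, which belong to one of the tissues that make Edn1, had a median log2 fold change of -0.11 over the 5 tested. They summed to 24.2 and 33.2 TPM in the mutant libraries and 41.0 and 173 TPM in the controls, but without the general epithelial genes epcam and cdh1 the sums were 12.3 and 4.21 TPM against 10.7 and 5.45 TPM and overlapped. Among those markers, sox17 and sox32, which define early endoderm, did not exceed 0.17 TPM in any library. The markers foxa1, foxa2 and foxa3 were present in every library, at 0.538 to 5.42 TPM, and their groups overlapped. The edn1 value was highest in control replicate 2, where epidermis and periderm markers summed to 5020 TPM. Those markers summed to 644 TPM in control replicate 1 and to 808 and 533 TPM in the mutant libraries. The part of endoderm, epidermis or other cells in the edn1 values was not tested.

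The gene ednraa stood at 1.41 and 3.56 TPM in the mutant libraries and at 15.9 and 9.76 TPM in the controls. The lowest wild-type value was above the highest mutant value, as for 34.9% of all tested genes. The log2 fold change was -2.03 ± 0.41 (limma moderated SE, n = 2 per group, adjusted p = 0.026), or -1.86 relative to the median of all tested genes, with a 95% interval of -2.94 to -1.11. In wild-type cells the mean of ednraa lay above 53.5% of the tested genes, and in mutant cells above 23.5% of them.

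The fall of ednraa was not called when mutant replicate 1 (adjusted p = 0.14), mutant replicate 2 (0.065) or control replicate 1 (0.095) was left out, with no filter on low values (0.18), with the replicate number as a block (0.057), without trend and robust moderation (0.13) or per gene ID (0.058), although both mutant samples were lower throughout. Leaving out control replicate 2, the library rich in epidermal markers, gave -2.35 (adjusted p = 0.029). Markers of some other cells were also lower. Both mutant values were below both controls for 14 of 16 skeletal muscle, 4 of 5 heart and 7 of 12 endothelial markers tested. The count was 6 of 11 for pigment cells, but 3 of 12 for epidermis and periderm and 1 of 5 for pharyngeal endoderm. It was 1 of 7 for neural crest and 1 of 7 for sympathetic neurons and glia, against 34.9% of all tested genes. The 15 endothelial markers, kdrl and cdh5 among them, summed to 38.5 and 26.7 TPM in the mutant libraries and 98.4 and 57.3 TPM in the controls, and none was listed at 0 throughout. Cranial ectomesenchyme, the arch cells in which type A receptors act, had 4 falls and 1 rise among its 8 markers. Over all tested genes, 2.95% fell and 1.13% rose. The marker lists were chosen with earlier results of these data known, so differences between such shares are not results about the cells. Of the 8 markers, 5 were lower and 2 were higher in both mutant libraries, beside 34.9% and 18.2% of all tested genes. The median log2 fold change of the 8 was -0.78. These markers summed to 1206 and 1460.3 TPM in the mutant libraries and 1825 and 2184 TPM in the controls, and none was at 0 throughout. The part of any of these cells in the ednraa result was not tested.

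A pair of gene IDs carries the name ednraa, with 8 transcripts between them. The main one, ENSDARG00000011876, had 1.41 and 3.56 TPM in the mutant libraries and 15.2 and 7.15 TPM in the controls. The other, ENSDARG00000114764, had 0.711 and 2.62 TPM in the controls and was listed at 0 in the mutant libraries. Both IDs were therefore lower in mutant cells. Most of the signal came from 1 transcript, ENSDART00000010632, at 1.04 and 1.86 TPM in the mutant libraries and 12.4 and 6.52 TPM in the controls. Tested singly, that transcript had a log2 fold change of -2.05 ± 0.42 and was not called (adjusted p = 0.061 over 20835 transcripts, of which 2.52% were called, 0.965% rising and 1.56% falling).

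The gene ednrab was by far the most abundant receptor gene, at 654 and 850 TPM in the mutant libraries and 481 and 329 TPM in the controls. Its wild-type mean was above 96.9% of the tested genes. Both mutant samples were above both wild-type samples, as for 18.2% of all tested genes. The log2 fold change was 0.90 ± 0.20 (adjusted p = 0.070), with a 95% interval of 0.41 to 1.39, and it did not pass the test. It passed under median-ratio scaling (log2 fold change 1.06, adjusted p = 0.011) and without wild-type replicate 1 (1.18, adjusted p = 0.0037), and stood at 0.63 (adjusted p = 0.070) when control replicate 2 was left out. In the same libraries, 3 of 7 neural crest markers were called higher, beside 1.13% of all tested genes. Their median log2 fold change was 0.60, and their part in the ednrab values was not tested.

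Within each library the balance of the 2 type A genes differed between the groups. The gene ednraa made up 0.215% and 0.417% of their joint TPM in the mutant libraries, against 3.21% and 2.88% in wild-type samples. The sum of both genes was 655 and 853 TPM in the mutant libraries and 497 and 339 TPM in the controls. The joint level of type A receptor RNA was thus higher in both mutant samples while ednraa was lower. These sums and shares are given without a test.

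The type B receptor gene ednrba was low in every library, at 1.71 and 0.767 TPM in the mutant libraries and 2.14 and 0.521 TPM in the controls. The groups overlapped, and each replicate 1 was higher than each replicate 2. The log2 fold change was 0.00 ± 0.50 (adjusted p = 1.00), but the interval of -1.12 to 1.12 is wide. The remaining receptor gene, ednrbb, was listed at 0 in all 4 libraries. Pigment cell markers summed to 2172 and 2618 TPM in the mutant libraries and 2641 and 3157 TPM in the controls, of which the single gene gch2 gave 85.4% to 89.7%. Without gch2 the sums were 248 and 270.2 TPM against 385 and 371 TPM, and ltk did not exceed 0.530 TPM in any library. Of 11 tested pigment markers, 3 fell and 0 rose, beside 2.95% and 1.13% of all tested genes.

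**Figure D2:**
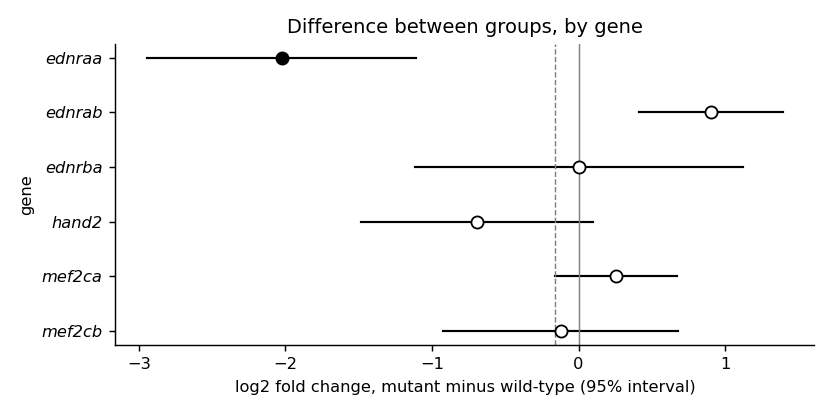
Log2 fold change of mutant against wild-type for the 6 tested genes, with 95% intervals from limma (filled point, adjusted p under 0.05; solid line, no difference; dashed line, the median of all tested genes at -0.16). The interval of ednraa lies below 0, that of ednrab above it without passing the adjusted test, and the other 4 include 0.

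**Figure D3:**
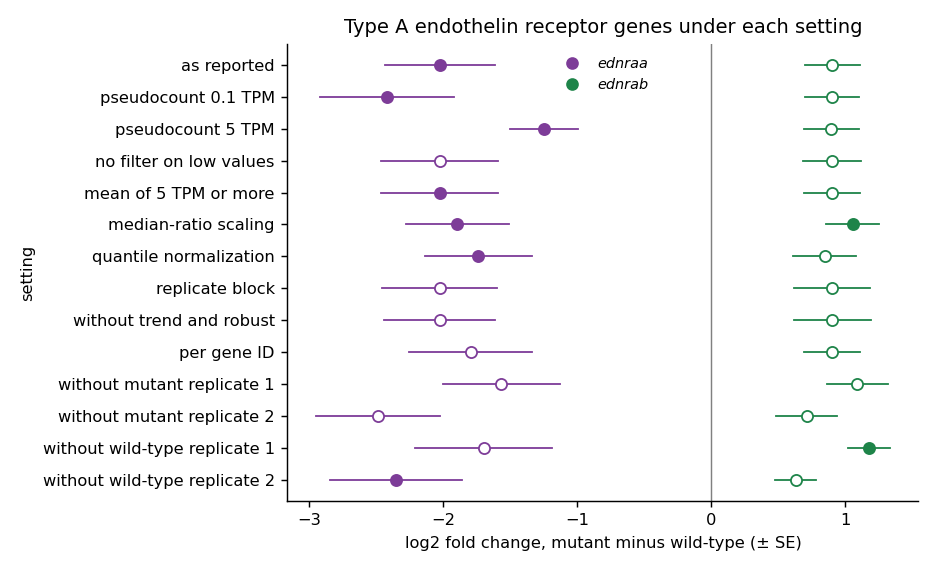
Log2 fold change (± SE) of ednraa and ednrab as reported and under each of 13 alternative settings, with filled points where the adjusted p was under 0.05. The sign of each gene is the same in all 14. Leaving out a sample could not turn it, because the groups do not overlap for either gene. The call of ednraa holds in 7 settings, and ednrab is called in 2.

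Among the effectors, hand2 encodes a bHLH factor of the most ventral arch cells. The mutant libraries held 6.56 and 6.64 TPM and the controls 8.05 and 15.7 TPM. Both mutant samples were lower, as for 34.9% of all tested genes. The wild-type samples differed more from each other than wild-type replicate 1 did from the mutant samples. The log2 fold change was -0.69 ± 0.355 (adjusted p = 0.30; interval -1.49 to 0.10). It was -1.14 without wild-type replicate 1 and -0.25 without wild-type replicate 2, and neither passed. Heart markers, whose tissue also uses hand2, summed to 24.0 and 4.41 TPM in the mutant libraries and 50.4 and 39.2 TPM in the controls. The markers myh6, nppa and nppb were at 0.1 TPM or less in every library. Higher values were those of myl7, at 6.42 and 1.05 TPM in the mutant libraries and 10.7 and 14.5 TPM in the controls. For tnnt2a they were 1.87 and 2.01 TPM against 16.4 and 9.43 TPM. The groups of cmlc1 overlapped, at 11.8 and 0 TPM against 17.0 and 8.62 TPM. Of the 5 tested heart markers, 1 fell and 0 rose, beside 2.95% and 1.13% of all tested genes. Ectomesenchyme markers, given above, had lower sums as well. The part of either in the hand2 values was not tested.

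The gene mef2ca encodes the MADS-box factor required for the response to Edn1 in zebrafish arches, and it was the most abundant effector, at 81.0 and 62.0 TPM in the mutant libraries and 63.2 and 55.4 TPM in the controls. The groups overlapped. The log2 fold change was 0.26 ± 0.19 (adjusted p = 0.46), with an interval of -0.16 to 0.67. Its duplicate mef2cb was lower, at 5.75 and 9.46 TPM in the mutant libraries and 10.3 and 6.41 TPM in the controls. For mef2cb the groups overlapped as well (log2 fold change -0.12 ± 0.36, adjusted p = 0.87, interval -0.93 to 0.68), and the sign was positive under median-ratio scaling (0.02) and quantile normalization (0.17). The gene mef2ca held 93.4% and 86.8% of the TPM of the mef2c pair in mutant cells and 86.0% and 89.6% in wild-type cells. Skeletal muscle markers had lower sums in mutant cells, as given above. The part of muscle RNA in the mef2ca and mef2cb values was not tested.

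The values of the mef2ca transcripts did not all go the same way. Of 7 transcripts, 5 had a mean of 1 TPM or more. The transcript ENSDART00000131731 stood at 23.8 and 24.9 TPM in the mutant libraries and 12.7 and 11.9 TPM in the controls, or 29.4% and 40.1% of the gene's TPM against 20.1% and 21.5%. In the other direction, ENSDART00000099134 stood at 8.40 and 6.52 TPM in the mutant libraries and 16.1 and 11.1 TPM in the controls, or 10.4% and 10.5% of the gene's TPM against 25.5% and 20.1%. The groups were separate for all 5 of these transcripts. ENSDART00000097433 was also lower in both mutant samples, at 5.17 and 1.45 TPM against 6.07 and 5.62 TPM in the controls. The remaining 2, ENSDART00000134219 and ENSDART00000138962, were higher, each at 21.8 and 14.6 TPM against 14.1 and 13.4 TPM. Groups were separate for 53.2% of all tested genes, and the share over transcripts was not counted. None of the 5 passed when tested singly. For ENSDART00000131731 and ENSDART00000099134 the log2 fold changes were 0.93 ± 0.22 and -0.78 ± 0.31 (limma, adjusted p = 0.093 and 0.24). The identical values of ENSDART00000134219 and ENSDART00000138962 in every library mean that their reads were not told apart. How reads were divided among the other transcripts rests on the authors' estimates.

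**Figure D4:**
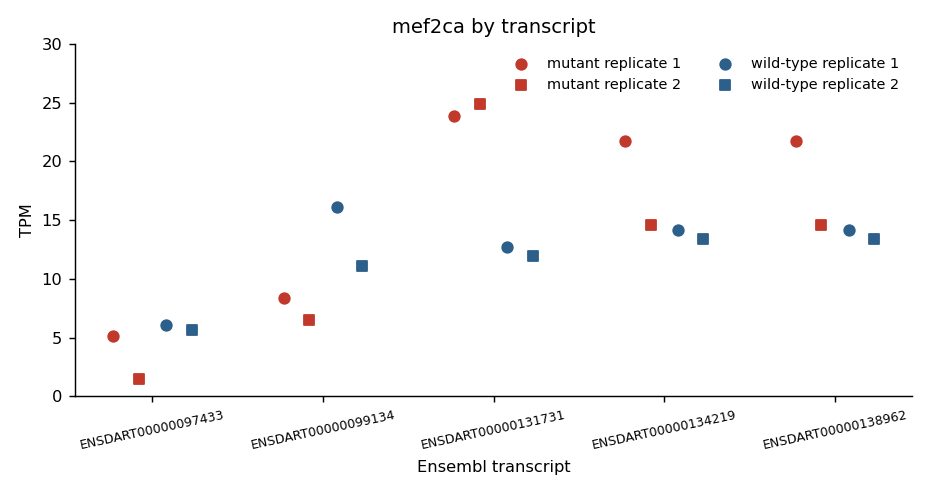
TPM of the 5 mef2ca transcripts with a mean of 1 TPM or more, in each sample (red, mutant; blue, wild-type; circles, replicate 1; squares, replicate 2). ENSDART00000131731 and the last 2 transcripts are higher in both mutant samples, and ENSDART00000097433 and ENSDART00000099134 are lower. The last 2 transcripts have the same values as each other.

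TPM is scaled by length, so levels can also be set against each other across genes. In wild-type cells the order of TPM was ednrab, then mef2ca, then ednraa, hand2 and mef2cb, then ednrba and edn1. The values of ednraa, hand2 and mef2cb overlapped one another, as did those of ednrba and edn1. In mutant cells ednrab and mef2ca again came first, followed by mef2cb and hand2, whose values overlapped. Below them came ednraa and ednrba, which also overlapped, and then edn1, listed at 0. The gene ednraa thus overlapped hand2 and mef2cb in wild-type cells and lay below both in mutant cells.

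The wider pathway was described with 86 further genes in lists, of which 79 were named in the table and 57 were tested. Of these, 3 rose, 9 fell and 45 were not called, so 21.1% were called, beside 4.08% of all tested genes. The lists were chosen with earlier results of these data known, so the difference between these shares is not a result about the pathway. The mutated gene nr2f5 is one of the 9, and the only one of the 12 still called with no filter on low values; without trend and robust moderation 0 were called, with 17 at an unadjusted p under 0.05. Over the whole table those settings called 4 and 0 genes. The median log2 fold change of the 57 was -0.22, and that of all tested genes -0.16.

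Few genes for making endothelin peptides were expressed. The ligand gene edn2 did not exceed 0.563 TPM in any library and edn3b was listed at 0 in all 4. Of the 4 tested genes for cleaving endothelin precursors, limma called 0, and 1 had an unadjusted p under 0.05. That gene was furina, which encodes a protease needed for Edn1 activity in zebrafish. It stood at 0.728 and 0.736 TPM in the mutant libraries and 3.78 and 2.59 TPM in the controls (log2 fold change -1.26 ± 0.41, adjusted p = 0.12). Its duplicate furinb, named outside the rule for named genes, lay below the 1 TPM minimum and was not tested. The values of furinb went the other way, at 1.60 and 0.968 TPM in the mutant libraries and 0.842 and 0.564 TPM in the controls. The endothelin-converting enzyme gene ece1 had 0.754 and 1.75 TPM in the mutant libraries and 1.26 and 0.98 TPM in the controls. The related ece2a was the most abundant of these genes, at 22.4 and 18.8 TPM in the mutant libraries and 15.5 and 12.5 TPM in the controls, and was not called (adjusted p = 0.29). The proprotein convertase gene pcsk5b, at 4.82 to 6.51 TPM, was not called either.

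Genes of the G proteins and enzymes below the receptors included 1 rise and 1 fall among 10 tested, beside 1.13% and 2.95% of all tested genes. The called genes both belong to a duplicated pair that encodes the G protein subunit Gα13. The gene gna13a rose from 4.17 and 4.05 TPM in the controls to 25.4 and 12.1 TPM in the mutant libraries (log2 fold change 1.86 ± 0.37; adjusted p, 0.025), and gna13b fell from 55.5 and 40.3 TPM to 21.2 and 15.2 TPM (-1.35 ± 0.25, adjusted p = 0.020). Their summed level, 46.6 and 27.3 TPM in the mutant libraries and 59.6 and 44.3 TPM in the controls, overlapped between the groups. Leaving out mutant replicate 1 (adjusted p = 0.17) or control replicate 2 (0.057) ended the call of gna13a, and leaving out mutant replicate 1 (0.055), mutant replicate 2 (0.17) or control replicate 1 (0.076) ended that of gna13b. The phospholipase gene plcb3, which zebrafish need for Edn1 signalling in the arches, stood at 0.758 and 1.31 TPM in the mutant libraries and 2.71 and 3.46 TPM in the controls without passing (log2 fold change -1.01 ± 0.40, adjusted p = 0.19).

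Of 7 further tested genes of the Mef2 family and of the class IIa histone deacetylases, which bind and repress Mef2 proteins, 1 fell and 0 rose. Over all tested genes, 2.95% fell and 1.13% rose. The called gene was mef2d, at 10.4 and 4.65 TPM in the mutant libraries and 21.7 and 24.0 TPM in the controls (log2 fold change -1.57 ± 0.35, limma adjusted p = 0.039). The call ended on leaving out mutant replicate 2 (adjusted p = 0.23), control replicate 1 (0.072) or control replicate 2 (0.10), with quantile normalization (0.054) and with the replicate number as a block (0.054). The share of mef2ca in all mef2 TPM was 78.8% and 74.1% in mutant and 60.8% and 59.4% in wild-type cells. Skeletal muscle, which also uses Mef2 factors, had the lower marker sums in mutant cells given above, and the part of muscle RNA in the mef2d values was not tested.

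The ventral and intermediate arch genes gave 1 rise and 3 falls among 15 tested besides hand2, with a median log2 fold change of 0.07. Over all tested genes, 1.13% rose and 2.95% fell. The homeobox genes dlx3b and dlx4b, which depend on Edn1 in zebrafish arches, fell. For dlx3b the controls held 75.5 and 127 TPM and the mutant libraries 17.2 and 27.6 TPM (log2 fold change -2.12 ± 0.30, adjusted p = 0.0075). For dlx4b they held 24.5 and 55.5 TPM against 4.55 and 6.20 TPM (-2.59 ± 0.38, adjusted p = 0.0069). Both genes were highest in control replicate 2, the library rich in epidermal markers. Without that library the log2 fold changes were -1.74 for dlx3b and -2.01 for dlx4b. No list of otic (ear) markers was examined. The part of epidermis, otic cells or other cells in the dlx3b and dlx4b values was not tested. The gene igfbp5b, for an insulin-like growth factor binding protein, fell from 5.81 and 4.48 TPM to 0.945 and 1.13 TPM (adjusted p = 0.048), and the forkhead gene foxf2a rose from 6.13 and 2.55 TPM to 13.9 and 14.9 TPM (adjusted p = 0.045). The call of igfbp5b was lost when any 1 sample was left out (adjusted p = 0.087 to 0.22), and that of foxf2a without mutant replicate 1, mutant replicate 2 or wild-type replicate 2 (0.12 to 0.28). The call of dlx3b was lost without mutant replicate 1 (0.053), and that of dlx4b without mutant replicate 1 or 2 (0.079 and 0.061). Among the other settings, median-ratio scaling ended the call of dlx3b (0.054), the replicate block those of foxf2a (0.057) and igfbp5b (0.066), a pseudocount of 0.1 TPM also both (0.054 and 0.056), and a pseudocount of 5 TPM (0.056) and quantile normalization (0.11) that of igfbp5b. The remaining 11 tested genes, dlx5a, dlx6a and msx1b among them, were not called.

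The dorsal arch genes gave 1 rise and 4 falls among 21 tested, beside 1.13% and 2.95% of all tested genes. Their median log2 fold change was -0.41. The rise was that of nr2f1b, and the falls were those of the mutated gene nr2f5 and of prrx1b, twist1a and prrx1a. The last was named outside the rule for named genes after its values were seen. All of these falls but that of nr2f5 are also among the 4 of 8 falls in the cranial ectomesenchyme markers, so the lists are not separate. Without mutant replicate 2 the falls of twist1a (adjusted p = 0.059) and prrx1a (0.12) were not called, nor was that of prrx1a when mutant replicate 1 (0.20) or control replicate 2 (0.14) was left out, with quantile normalization (0.077) or under median-ratio scaling (0.13). The Notch ligand gene jag1b, which Edn1 keeps out of ventral arch cells in zebrafish, was not called (adjusted p = 0.14), nor were the Pou factor genes pou3f3a and pou3f3b.

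**Figure D5:**
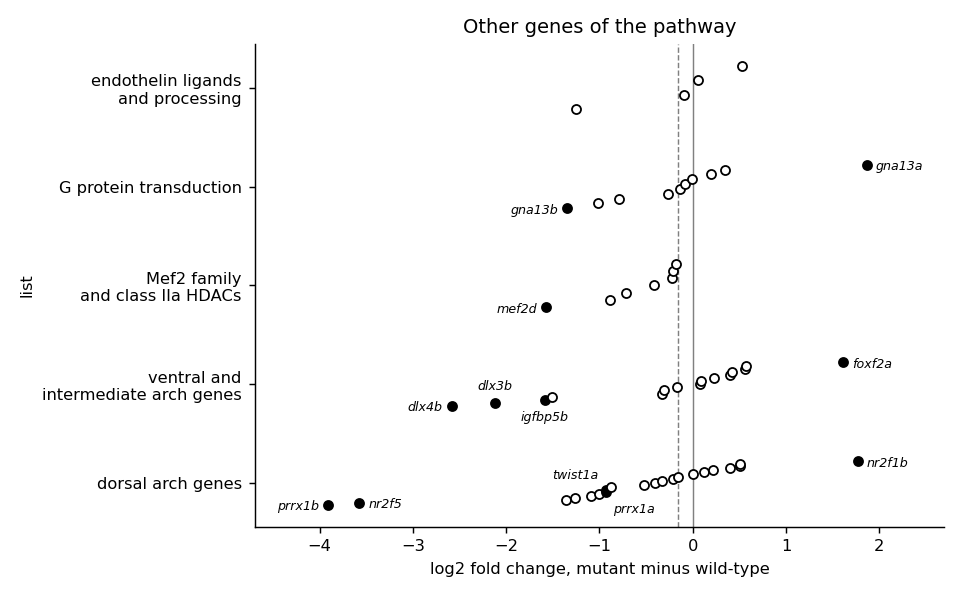
Log2 fold change of mutant against wild-type for each tested gene of the pathway lists, the 7 members left out (filled and named, adjusted p under 0.05; solid line, no difference; dashed line, the median of all tested genes). The 3 rises are gna13a, foxf2a and nr2f1b, and the 9 falls lie between -0.93 and -3.91.

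The genes whose values ran most like those of a member were found by the root mean square difference of centred log2(TPM + 1) over the 4 samples, among 8252 genes that had a gene symbol and averaged at least 5 TPM. The nearest to ednraa were plxnb2a, at a difference of 0.19, then serpinf1 and polh. The nearest to ednrab were sgk1 (0.036), tex30 and pag1: sgk1 stood at 24.7 and 33.0 TPM in the mutant libraries and 17.9 and 12.8 TPM in the controls. For hand2 they were dpf3 (0.093), lmo4a and rhot1b, and for ednrba they were bend3 (0.055), rfx2 and ppardb. The values of mef2ca and mef2cb spanned less than 1 on the log2 scale, and no such genes were sought for them. With 4 samples, close matches of this kind are a description of these libraries.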

How the data were processed

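RNA from sorted zebrafish cells was sequenced after cDNA amplification with the SMARTer kit, per the labels. The authors deposited TPM for 65905 transcripts, 57775 of them with values; the tool kallisto and the build GRCz11 come from names per the submitters' processing notes, and versions and other steps are not given in the sources used here. TPM was summed per gene name (26267 genes) and analysed as log2(TPM + 1), a scale that understates changes at low TPM. Those averaging at least 1 TPM were tested with limma 3.58.1 in R 4.3.3 (trend and robust, statmod 1.5.0), mutant against wild-type with no other term in the model. Two-sided p-values were Benjamini-Hochberg adjusted over all 14217 tested genes. The procedure was run on simulated data with gene means and spread taken from these data. That run held no outlying library, so it cannot show how the procedure handles 1. The table called 161 rises and 419 falls, 323 and 420 under median-ratio scaling and 235 and 254 with quantile normalization, which moved the median log2 fold change from -0.16 to -0.03 and 0.03.

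The members and lists were chosen with earlier results of these data known. Named genes were the members, the called genes of each pathway list (up to 4 by smallest p, or the 2 with the highest mean where none passed), and edn2, edn3b, ednrbb, ece1, furina and plcb3. Alternatives were other pseudocounts, filters and scalings, a replicate block, limma without trend and robust, sums per gene ID, leaving out each sample and, added after the data were seen, single transcripts. Neither sequences nor coordinates were used here.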

Additional observations from a re-analysis of the deposited data

How the results depend on the processing

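The count of called members, 1 as reported, was 2 under median-ratio scaling (ednraa and ednrab) and 0 in limma with no filter on low values, with the replicate block, without trend and robust, per gene ID and per transcript, where 1 to 3 members had an unadjusted p under 0.05. It ran from 0 to 1 when 1 sample was left out, and without wild-type replicate 1 the called member was ednrab in place of ednraa. The count of called pathway genes, 12 as reported, was 1 with no filter and 0 without trend and robust (20 and 17 at an unadjusted p under 0.05), where the whole table gave 4 and 0 calls, and 5 to 9 when 1 sample was left out. A group left with 1 sample was assumed to vary like the other. The causes were not tested.

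Signs turned for uncalled genes only: ednrba at a pseudocount of 5 TPM (-0.0131), and mef2cb under median-ratio scaling (0.0165) and quantile normalization (0.17). With 1 sample left out, the log2 fold change ran from -0.52 to 0.53 for ednrba (lowest without wild-type replicate 2), from -0.44 to 0.19 for mef2cb (lowest without mutant replicate 2) and from -0.27 to 0.38 for ece1 (lowest without mutant replicate 2). The labels do not say that replicate numbers pair samples, and deviations of same-numbered samples were uncorrelated across genes (r = -0.012); the block brought the pathway count to 10. Depth is unknown, which limits what can be said of edn1, edn2 and ednrba.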
